A study of Mus musculus with 17 samples.

Results

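CD31+ Kit- CD45- cells of the E11.5 mouse aorta-gonad-mesonephros (AGM) region were compared after 2 h on stroma that carried Jag1 (Kit-J) or Dll4 (Kit-D). The comparison was defined by the sample titles and holds 2 Kit-J arrays and 3 Kit-D arrays, 5 of the 17 Affymetrix mouse gene arrays in the series. Cells positive for CD31 and negative for CD45 and Ter119 were sorted from E11.5 embryos, seeded on OP9-Jag1 or OP9-Dll4 with SCF (10 ng per ml), VEGF (10 ng per ml) and other cytokines, recovered after 2 h and sorted again by Kit. OP9 is a bone marrow stromal line of the mouse, and both lines overexpress their ligand, so both cultures supply ligand in excess and neither is a culture without one. Fresh Kit- cells (3 arrays, no culture) came from an earlier array series. The Kit+ fractions of the 2 h cultures (Kit+J and Kit+D) have 3 arrays each. Values of these groups are given as levels, except where a test is named. Their arrays also enter the pooled variance behind the p-values, because 1 model was fitted to all 17 arrays of the series. The methods state that RNA came from independent sorts, and a figure legend of the study states that the authors left out 1 further Kit-J array on technical grounds. A line of the sample descriptions names the opposite Kit fraction for both Kit-J arrays and for Kit-D replicate 3. The titles were followed, and the Kit transcript is given below for every array. Each array carried RNA of a few nanograms of starting material (5 ng), amplified before labelling. All values are log2 signals, differences are Kit-J minus Kit-D, and a gene was called where its adjusted p (limma, Benjamini-Hochberg over 19937 genes) was under 0.05.

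Notch receptors are cleaved when a ligand on a neighbouring cell pulls on them, and the freed intracellular domain joins the DNA-binding protein RBPJ to switch on target genes such as the Hes and Hey repressors. Dll4 is the ligand best known for the arterial programme of the embryonic aorta, and Jag1 is needed for blood stem cells to arise there. These stem cells come from haemogenic endothelium, flat vessel-wall cells that lose endothelial genes, gain Kit and round up into clusters, a step called the endothelial-to-haematopoietic transition.

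After 2 h on the stromas, 1869 genes were called, which is 9.37% of those tested. Of these, 658 were higher in Kit-J (3.3%) and 1211 were lower (6.07%); with each array scaled to its housekeeping genes 256 were higher and 908 lower. The lower genes also moved further, with 876 of them past a log2 difference of 1 and 206 past 2, against 180 and 49 of the higher genes. The median over all genes was 0.11. These calls rest on the variance of all 17 arrays. A fit of the 5 arrays alone gave 1151 calls, and a fit of the 11 cultured arrays gave 748. Every list count below is to be read against the 3.3% of all genes called higher and the 6.07% called lower. Among the 1211 lower genes the mean of fresh Kit- cells lay between the means of Kit-J and Kit-D in 1091, above both in 96 and below both in 24, and it was nearer to Kit-D in 843. Among the 658 higher genes it lay between them in 619 and was nearer to Kit-D in 396.

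The Kit-J arrays were less alike than the Kit-D arrays. The Euclidean distance over all genes was 77.8 between the Kit-J arrays and 53.1 to 61.6 between Kit-D arrays, and Kit-J replicate 1 lay 104 to 118 from the Kit-D arrays where Kit-J replicate 2 lay 80.8 to 97.2 from them. Kit-J replicate 1 had the narrowest spread of gene values of the 5 arrays (SD 1.71), followed by Kit-J replicate 2 (1.86) and the Kit-D arrays (1.93 to 1.99). Its dim genes read high and its bright genes low. In the dimmest 25% of genes by mean signal the median difference was 0.23, and in the brightest 25% it was -0.19, or 0.33 and -0.32 on Kit-J replicate 1 and 0.12 and -0.04 on Kit-J replicate 2. Olfactory receptor genes, which are silent outside sensory tissue, had a median of 0.33, and 86 of 1027 (8.37%) were called higher against 1 called lower. The part of this compressed scale in the calls was not tested. Calls that held with each of the 5 arrays left out in turn numbered 344 lower (1.73%) and 26 higher (0.13%), 3 of the 26 being olfactory receptor genes. Leaving out Kit-J replicate 1 gave 408 lower and 96 higher genes, and leaving out Kit-J replicate 2 gave 1265 higher genes.

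**Figure D1:**
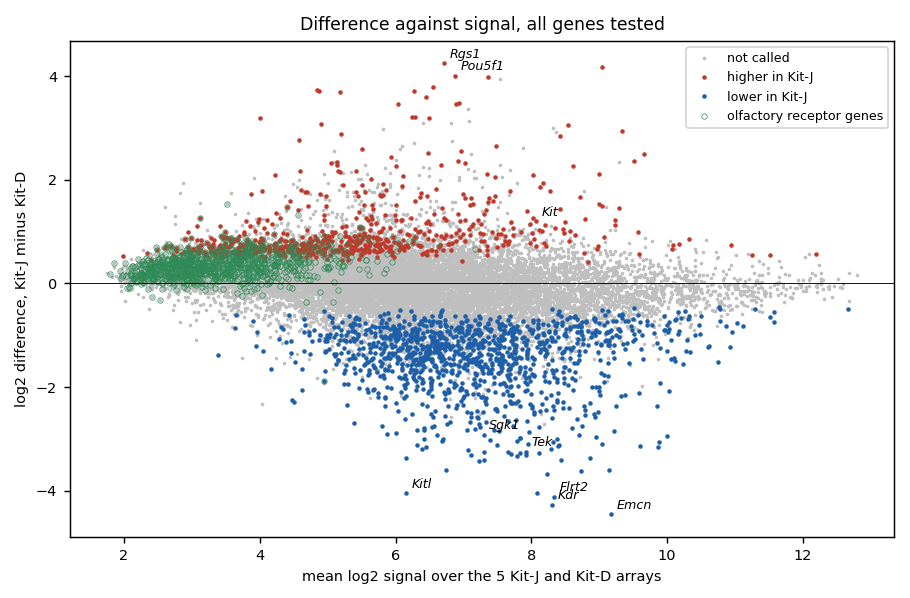
Log2 difference (Kit-J minus Kit-D, y axis) against mean log2 signal over the 5 arrays (x axis) for the 19937 genes tested, with called genes in red (higher in Kit-J) and blue (lower) and olfactory receptor genes ringed in green. The dim genes at the left sit above 0, with a median of 0.33 for the olfactory receptor genes, and the largest falls lie at middle and high signal.

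**Figure D2:**
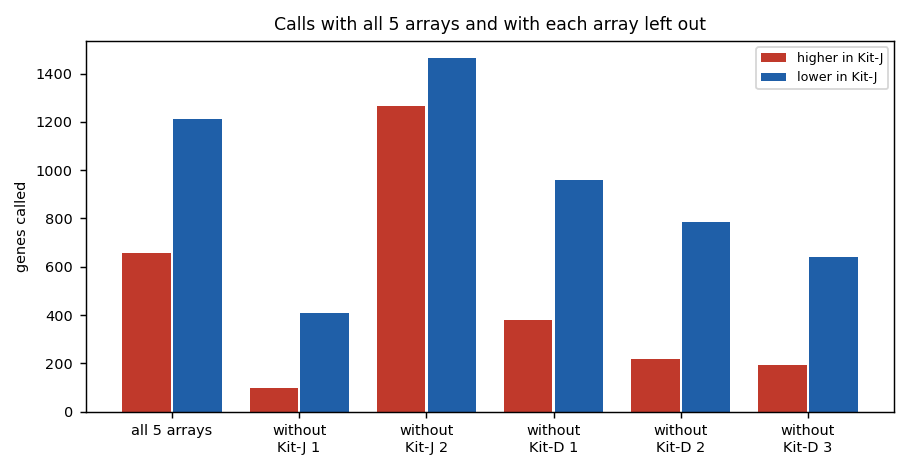
Genes called higher (red) and lower (blue) in Kit-J with all 5 arrays and with each array left out of the fit. The lower calls ran from 408 without Kit-J replicate 1 upwards, and the higher calls ranged from 96 without Kit-J replicate 1 to 1265 without Kit-J replicate 2.

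Kitl, Flrt2 and Kdr marked the difference. Kitl encodes stem cell factor, the ligand of Kit, and its signal was 3.76 and 3.69 on the Kit-J arrays and 7.55, 7.43 and 8.34 on the Kit-D arrays. On the Kit-J arrays 10.9% and 12.5% of genes read lower than Kitl, so it was near the bottom of the measured range there. Fresh Kit- cells lay between the groups at 6.20 ± 0.21 (SD, n = 3). The difference was -4.05 ± 0.36 (SE; 16.5-fold lower, adjusted p = 1.7e-05). Flrt2, an adhesion and guidance protein that binds Unc5 receptors, was 5.00 and 6.72 in Kit-J and 9.77, 10.05 and 10.12 in Kit-D. Its difference was -4.12 ± 0.42 (17.4-fold lower, adjusted p = 5e-05). Kdr, the main signalling receptor for VEGF on endothelium, was 5.11 and 6.38 in Kit-J against 9.95, 9.83 and 10.26 in Kit-D, and 9.70 ± 0.12 in fresh Kit- cells. It was 19.3-fold lower (-4.27 ± 0.38, adjusted p = 1.7e-05). The groups did not overlap in any of the 3 genes, which was also so, with Kit-J below, in 18.9% of all genes. Kit-J replicate 2 stood closer to Kit-D than Kit-J replicate 1 did for Flrt2 and Kdr. The highest adjusted p of the 3 with any array left out was 0.001.

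The 250 bases before the annotated start of these genes are shown because the genes moved together and because RBPJ, the DNA-binding partner of the Notch domain, is known to bind the core TGGGAA, letters that Ikaros proteins also recognise. The windows are from RefSeq (GRCm38.p6), written 5′ to 3′ on the strand of the gene. Capitals mark TGGGAA or its reverse complement TTCCCA.
Kitl, chr10:100015571-100015820, plus strand: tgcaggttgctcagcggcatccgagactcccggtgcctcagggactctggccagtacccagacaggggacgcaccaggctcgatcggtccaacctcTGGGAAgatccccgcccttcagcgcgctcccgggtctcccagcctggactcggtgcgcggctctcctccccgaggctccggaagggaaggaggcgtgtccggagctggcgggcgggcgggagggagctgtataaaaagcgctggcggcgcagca
Kdr, chr5:75978456-75978705, minus strand: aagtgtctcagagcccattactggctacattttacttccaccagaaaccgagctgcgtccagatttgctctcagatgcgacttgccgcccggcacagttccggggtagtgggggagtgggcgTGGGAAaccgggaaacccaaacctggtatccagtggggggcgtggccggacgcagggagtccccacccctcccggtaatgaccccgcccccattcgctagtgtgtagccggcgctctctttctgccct
Flrt2, chr12:95691976-95692225, plus strand: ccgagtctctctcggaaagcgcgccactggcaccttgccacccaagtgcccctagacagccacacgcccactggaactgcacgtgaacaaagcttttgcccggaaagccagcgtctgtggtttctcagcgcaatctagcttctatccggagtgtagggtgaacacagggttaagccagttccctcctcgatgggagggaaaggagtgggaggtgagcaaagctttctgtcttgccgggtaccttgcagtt
The core stood 154 bases before the start of Kitl and 128 before that of Kdr, and the window of Flrt2 had no match. It was found in 21.6% of the 32851 windows of this length in the table, in 20.9% of those of the genes tested, in 22.1% of those of genes called lower and in 18.5% of those of genes called higher. A second motif, AGGAAG or its reverse complement CTTCCT, is 1 form of the site of the ETS factors that drive endothelial genes. These letters were absent from the 3 windows, and other forms of the ETS site were not searched. They were held by 28.4% of windows of the genes tested, 28.7% of those of lower genes and 30.1% of those of higher genes. A gene can have several windows, 15613 of the 19937 genes had at least 1, and a match is a description of the letters only.

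**Figure D3:**
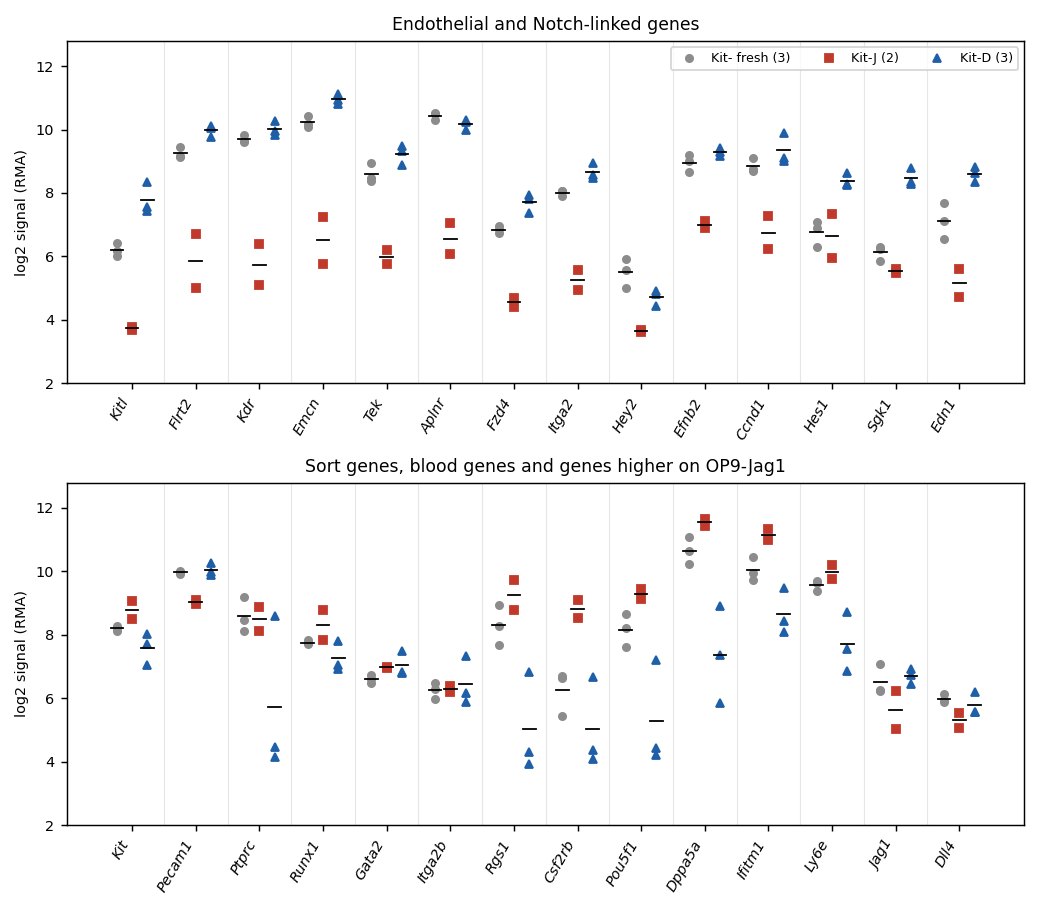
Log2 signal on each array (points) and group mean (black line) for fresh Kit- (grey circles, 3 arrays), Kit-J (red squares, 2) and Kit-D (blue triangles, 3). In the upper panel every Kit-J square lies below every Kit-D triangle; in the lower panel Kit-D replicates spread over 4.16 to 8.59 for Ptprc, and Kit-J lies above Kit-D for Kit, Rgs1, Csf2rb, Pou5f1, Dppa5a, Ifitm1 and Ly6e.

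Endothelial identity genes were lower on OP9-Jag1 as a group. Of 36 measured, 28 were called lower and 0 higher, where 6.07% of all genes were lower, and their median difference was -1.74. The groups did not overlap in 33 of the 36 with Kit-J below (background 18.9%; 28.9% of all genes did not overlap with Kit-J above), and 17 were called in every fit with an array left out (background 1.73%). The count was 18 without Kit-J replicate 1 and 19 to 25 without any other array. Relative to fresh Kit- cells, the mean of the list was -1.72 and -1.37 on the Kit-J arrays and 0.165, 0.127 and 0.593 on the Kit-D arrays. For comparison, it was -2.33 to -2.15 on the Kit+J arrays and -1.89 to -1.41 on the Kit+D arrays, so the Kit-J arrays stood far from Kit-D and near the Kit+ fractions in these genes. The change included Emcn, an endothelial sialomucin, at 5.77 and 7.24 in Kit-J and 10.80, 10.93 and 11.12 in Kit-D (-4.45 ± 0.71, 21.8-fold lower, adjusted p = 0.0014). Tek, the angiopoietin receptor also called Tie2, was 5.75 and 6.19 against 9.31, 8.87 and 9.49 and had one of the smallest adjusted p values of the comparison (-3.25 ± 0.21, adjusted p = 1.7e-06). Clec14a, an endothelial surface lectin, was 7.34-fold lower (adjusted p = 2.2e-05), and Ptprb, the phosphatase that restrains Tek, was 6.84-fold lower (adjusted p = 4e-05). Cdh5, which encodes VE-cadherin, was 8.15 and 8.29 in Kit-J and 11.06, 11.05 and 11.42 in Kit-D (-2.95 ± 0.62, adjusted p = 0.00881), though the adjusted p rose to 0.0895 with an array left out. Not every endothelial gene was called lower. Pecam1, which encodes the CD31 used in both sorts, was 9.08 and 8.98 in Kit-J against 9.89 to 10.25 in Kit-D. Its Kit-J arrays lay below every Kit-D array, but the difference missed the threshold (-1.0 ± 0.35, limma adjusted p = 0.086). Tal1 and Lyl1, which blood progenitors share with endothelium, had differences of 0.05 and 0.40 and were not called.

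Genes of arterial, venous and lymphatic vessels were both lower. Of 17 arterial genes 8 were called lower (median -1.03), and of 12 venous and lymphatic genes 9 were (median -2.25), with 0 higher in either list. Without Kit-J replicate 1 these counts were 2 and 6, and without Kit-D replicate 3 they were 5 and 9. Among arterial genes the calls included Nrp1, a co-receptor for VEGF and semaphorins (6.08 and 6.61 in Kit-J; 8.53, 8.36 and 9.04 in Kit-D; -2.30 ± 0.21, adjusted p = 2.2e-05). They also included Gja5, the arterial connexin Cx40 (-1.84 ± 0.37, adjusted p = 0.00685), and Epas1, the hypoxia-inducible factor of endothelium (-2.48 ± 0.47, adjusted p = 0.0047). In the venous and lymphatic list, Aplnr, the apelin receptor of venous endothelium, was 12.3-fold lower (6.07 and 7.04 in Kit-J; 10.23, 10.00 and 10.31 in Kit-D; adjusted p = 0.00028). Nr2f2, which sets venous identity, was 4.56-fold lower (adjusted p = 4.2e-05). Prox1, which sets lymphatic identity, was 4.83 and 4.63 in Kit-J and 7.22, 7.56 and 7.86 in Kit-D, with fresh Kit- cells in between at 5.74 ± 0.22. The difference was thus not limited to either vessel type.

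Of 14 VEGF and angiopoietin genes 10 were called lower (71.4%, against 6.07% of all genes, median -2.08). Vegfa, the ligand itself, was among them with a small difference (-0.87 ± 0.26, adjusted p = 0.047). Of 14 genes for vasoactive peptide receptors and caveolae 11 were called lower (median -1.94). Without Kit-J replicate 1 the counts were 7 and 5. They included Ednrb, an endothelin receptor (6.36-fold lower, adjusted p = 0.002), and the caveolar genes Cav2 (4.31-fold lower, adjusted p = 0.00074) and Cavin2 (4.56-fold lower, adjusted p = 0.0014). Ramp2, a partner of the adrenomedullin receptor, had a difference of -2.76.

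**Figure D4:**
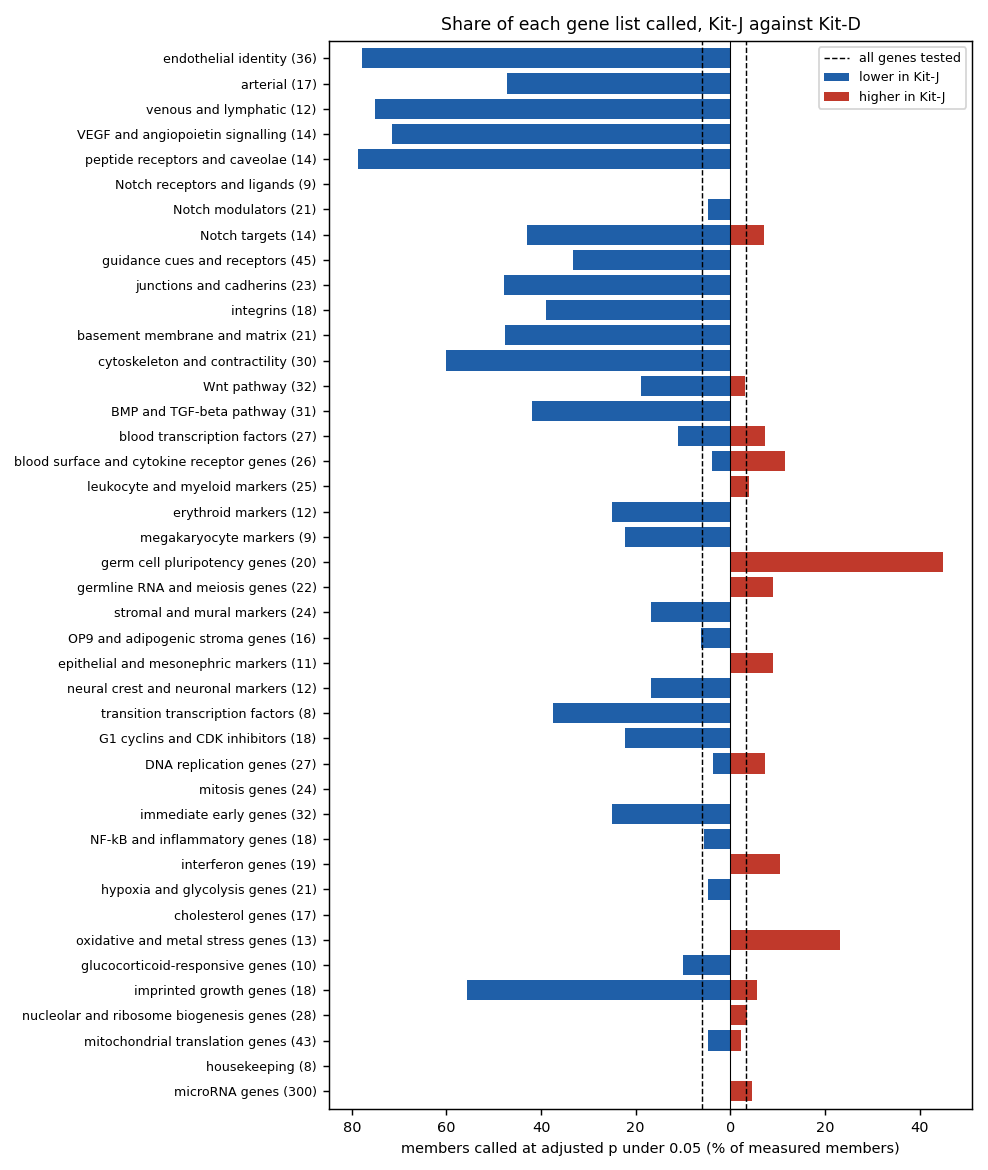
Percentage of the measured members of each gene list (number measured in parentheses) called lower (blue, to the left) or higher (red, to the right) in Kit-J. Dashed lines mark the share of all genes tested, 6.07% lower and 3.3% higher; the endothelial lists reach 47.1% to 78.6% lower, and the germ cell pluripotency genes reach 45% higher.

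**Figure D5:**
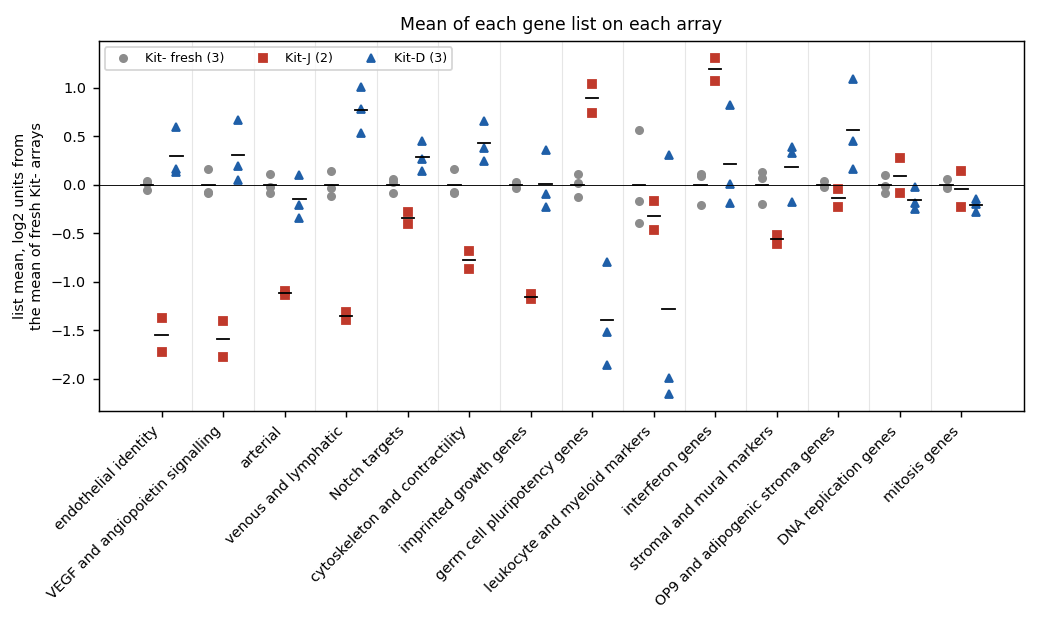
Mean of each gene list on each array, in log2 units from the mean of the fresh Kit- arrays (0 line), for fresh Kit- (grey circles), Kit-J (red squares) and Kit-D (blue triangles), with group means as black lines. Kit-J lies below Kit-D on every array for the endothelial, Notch target, cytoskeleton and imprinted lists, while the leukocyte list splits Kit-D replicate 1 (0.305) from replicates 2 and 3 (-1.99 and -2.16).

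Calls among Notch components and targets are set beside 9.37% of all genes called, 3.3% higher and 6.07% lower. Of 9 receptors and ligands 0 were called by limma (median -0.3), which a list this small can show at that share. At an unadjusted p under 0.05 (limma), 2 of the 9 were lower and 1 higher, where 2583 and 2896 of the 19937 genes were. The groups did not overlap with Kit-J below in 5 of the 9 (background 18.9%). Notch1, the receptor at the centre of the study, was 7.06 and 7.15 in Kit-J and 7.58, 7.44 and 8.18 in Kit-D (-0.64 ± 0.25, adjusted p = 0.125). Jag1 was 6.24 and 5.03 in Kit-J and 6.74, 6.46 and 6.94 in Kit-D (-1.08 ± 0.38, adjusted p = 0.087). Dll4 was 5.07 and 5.53 against 5.57, 5.56 and 6.21 (-0.48 ± 0.26, adjusted p = 0.24). Neither ligand was called higher in cells from the stroma that overexpresses it. Of 21 modulators 1 was called, Mib1, the ubiquitin ligase that makes ligands competent to signal (-1.03 ± 0.27, adjusted p = 0.031, 0.43 with an array left out). Rbpj itself had a difference of 0.21 ± 0.21.

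Of 14 Notch targets 6 were called lower (42.9%, against 6.07% of all genes) and 1 higher (7.14%, against 3.3%). The list median was -0.26. Ccnd1, which encodes the G1 cyclin D1, was 6.23 and 7.27 in Kit-J and 9.12, 9.02 and 9.88 in Kit-D (-2.59 ± 0.31, 6.03-fold lower, adjusted p = 0.00015). Efnb2, the ephrin of arterial endothelium, was 6.89 and 7.12 against 9.15, 9.30 and 9.41 (-2.28 ± 0.28, 4.87-fold lower, adjusted p = 0.00019). These were the targets called in every fit with an array left out, and the count of lower targets was 2 when Kit-J replicate 1 was left out, 3 when Kit-D replicate 3 was and 4 without Kit-J replicate 2 or Kit-D replicate 2. Hey2, a repressor that favours arterial fate, was dim in both groups, at 3.69 and 3.61 in Kit-J and 4.81, 4.44 and 4.91 in Kit-D (-1.07 ± 0.24, adjusted p = 0.013, 0.087 with an array left out). Its level in fresh Kit- cells was 5.50 ± 0.45, above both groups. Hes1, a repressor and general Notch target, was 5.96 and 7.33 in Kit-J, 8.29, 8.25 and 8.62 in Kit-D and 6.76 ± 0.40 in fresh cells (-1.75 ± 0.35, adjusted p = 0.0076, 0.16 with an array left out). Fresh cells thus lay within the Kit-J range for Hes1 and below Kit-D. The feedback inhibitor Nrarp (-1.16 ± 0.31, adjusted p = 0.0304) and Id1, also a BMP target (-0.88 ± 0.26, adjusted p = 0.0434), were lower, and Dtx1 was higher (0.70 ± 0.17, adjusted p = 0.0235). None of the 3 was called in every fit with some array left out. Hey1, Heyl, Hes5, Myc and Gata2 were not called, at -0.33, -0.08, 0.47, -0.20 and -0.06.

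The start regions of the called targets Hey2 and Efnb2 are shown for the RBPJ core, marked as above.
Hey2, chr10:30842784-30843033, minus strand: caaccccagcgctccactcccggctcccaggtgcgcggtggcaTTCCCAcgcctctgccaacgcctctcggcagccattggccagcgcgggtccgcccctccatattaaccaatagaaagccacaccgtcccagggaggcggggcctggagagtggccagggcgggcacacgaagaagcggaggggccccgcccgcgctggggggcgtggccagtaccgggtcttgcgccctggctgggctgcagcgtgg
Efnb2, chr8:8661243-8661492, minus strand: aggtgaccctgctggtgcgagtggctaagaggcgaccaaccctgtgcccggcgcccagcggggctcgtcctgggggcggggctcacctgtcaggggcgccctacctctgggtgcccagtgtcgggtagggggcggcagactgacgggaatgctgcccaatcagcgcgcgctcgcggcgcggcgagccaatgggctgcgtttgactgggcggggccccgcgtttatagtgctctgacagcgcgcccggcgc
Hey2 held the reverse complement TTCCCA, beginning 207 bases before its start, and Efnb2 held no match in this window.

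Guidance and adhesion genes followed the endothelial lists. Of 45 guidance cues and receptors 15 were called lower (33.3%, against 6.07% of all genes) and 0 higher (median -0.72). Sema6d was 12.7-fold lower (adjusted p = 1.8e-05) and Sema6a 6.76-fold lower (adjusted p = 3.4e-05), both transmembrane semaphorins. Robo1, a Slit receptor, and Efna1, an ephrin, had differences of -2.43 ± 0.41 and -2.78 ± 0.55. Of 23 junction and cadherin genes 11 were lower, with Cgnl1, a tight junction scaffold, at 5.39 and 5.94 in Kit-J and 8.20, 8.08 and 8.48 in Kit-D (-2.59 ± 0.21, adjusted p = 1e-05). Cdh2, which encodes N-cadherin, was 4.19-fold lower (adjusted p = 0.00024). Of 18 integrins 7 were lower, led by Itga2, a collagen receptor subunit (4.93 and 5.58 in Kit-J; 8.56, 8.47 and 8.95 in Kit-D; 10.6-fold lower, adjusted p = 9.2e-06). Itgb1, the common beta subunit, was 2.72-fold lower (adjusted p = 0.00017). Without Kit-J replicate 1 the guidance, junction and integrin counts were 11, 5 and 4, and without Kit-D replicate 3 they were 11, 8 and 4.

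Of 21 basement membrane and matrix genes 10 were lower, among them the laminin gene Lama4 (9.62-fold, adjusted p = 0.00042) and Col4a1, a collagen of the vessel basement membrane (3.41-fold, adjusted p = 0.0022). Of 30 cytoskeletal and contractility genes 18 were lower and 0 higher (median -0.98). Limch1, an activator of non-muscle myosin, was 4.86 on both Kit-J arrays and 7.42, 7.64 and 8.28 in Kit-D (-2.93 ± 0.24, adjusted p = 1e-05). Myh10, a heavy chain of that myosin, was 4.45-fold lower (adjusted p = 0.0006). Snai2 and Zeb1, repressors known from epithelial-to-mesenchymal transition, were lower (3.7-fold, adjusted p = 0.00017; 3.27-fold, adjusted p = 0.0024), as was Prrx1, 3 of the 8 genes of that kind. Without Kit-J replicate 1 the matrix, cytoskeletal and transition counts were 3, 8 and 1, and the matrix count was 6 without Kit-J replicate 2 or Kit-D replicate 3.

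Among the Wnt genes, 6 of 32 were lower (18.8%, against 6.07% of all genes) and 1 higher (3.12%, against 3.3%). Called or not, 16 of the 32 had differences below 0 and 16 above. Fzd4, the receptor for Norrin and Wnt ligands on endothelium, had the smallest adjusted p of the comparison together with Tek. It was 4.70 and 4.41 in Kit-J and 7.80, 7.37 and 7.94 in Kit-D (-3.15 ± 0.20, adjusted p = 1.7e-06). Tspan12, its tetraspanin partner, was 7.08-fold lower (adjusted p = 0.00012), and the transcription factor Tcf7l2 was 3.72-fold lower (adjusted p = 0.00019). Wnt2 was the member that was higher (0.85 ± 0.18, adjusted p = 0.011, 0.093 with an array left out), and the pathway target Axin2 had a difference of 0.07. Of 31 BMP and TGF-beta genes 13 were lower (median -0.78), including the ligands Bmp2 (3.32-fold, adjusted p = 0.00028) and Bmp4 (-1.61 ± 0.31) and the receptors Bmpr2 (2.88-fold, adjusted p = 0.0014) and Acvrl1 (2.23-fold, adjusted p = 0.006). Without Kit-J replicate 1 the lower counts were 3 for Wnt and 7 for BMP and TGF-beta genes, and the Wnt count was also 3 without Kit-J replicate 2 or Kit-D replicate 3.

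Some of these genes stood above their fresh level on OP9-Dll4 and at or below it on OP9-Jag1. Sgk1, a kinase induced by serum and glucocorticoids, was 6.13 ± 0.23 in fresh cells, 8.29, 8.33 and 8.79 in Kit-D but 5.49 and 5.61 in Kit-J (-2.92 ± 0.27, 7.58-fold lower, adjusted p = 2.2e-05). Edn1, the vasoconstrictor endothelin 1, was 7.12 ± 0.57 fresh, 8.81, 8.63 and 8.35 in Kit-D but 4.71 and 5.62 in Kit-J (-3.43 ± 0.38, adjusted p = 9.8e-05). Kitl, Prox1 and Hes1 had the same order. The fresh arrays belong to an earlier series, so culture and array series cannot be told apart in these levels, whereas Kit-J and Kit-D cells were both cultured and belong to the same series. Of 32 immediate early genes, which respond within minutes to stimulation, 8 were lower and 0 higher in Kit-J (median -0.62), among them Dusp6, an inhibitor of ERK (3.2-fold, adjusted p = 0.00027), Fosb (4.42-fold, adjusted p = 0.0046) and Jun (2.23-fold, adjusted p = 0.0014). That count was 3 without Kit-J replicate 1 or Kit-D replicate 2 and 4 without Kit-D replicate 3. Of 18 NF-kB and inflammatory genes 1 was lower (5.56%, near the 6.07% of all genes), the adhesion molecule Icam1 (-1.48 ± 0.35, limma adjusted p = 0.018). Without Kit-J replicate 1 the adjusted p of Icam1 was 0.083. Sgk1 was the 1 of 10 glucocorticoid-responsive genes called.

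Imprinted growth genes, which are expressed from a single parental copy and are abundant in embryonic endothelium and stroma, were lower in 10 of 18 and higher in 1 (median -1.39). Mest was 7.85 and 8.23 in Kit-J and 10.96, 11.05 and 11.30 in Kit-D (-3.06 ± 0.48, adjusted p = 0.00132). Ndn was 3.78 and 4.49 against 6.99, 7.06 and 7.04 (7.44-fold lower, adjusted p = 0.00054). Plagl1, a transcription factor that governs other imprinted genes, was 5.73-fold lower (adjusted p = 0.00092), Peg10 2.84-fold lower (adjusted p = 0.00064), and Igf2, the growth factor, had a difference of -1.46 ± 0.33. Phlda2 was the exception, at 9.17 and 7.82 in Kit-J and 5.25, 6.48 and 6.11 in Kit-D (2.55 ± 0.73, adjusted p = 0.0415, 0.379 with an array left out).

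The sort genes gave mixed values. The Kit transcript was 9.08 and 8.50 in Kit-J and 7.72, 7.05 and 8.02 in Kit-D, although both groups were sorted as negative for the protein (1.20 ± 0.29, 2.29-fold higher, adjusted p = 0.02, 0.252 with an array left out). It was 8.13 to 8.29 in fresh Kit- cells, 8.51 to 8.99 in Kit+D, from 9.02 up to 9.93 in Kit+J and 9.44 to 9.55 in fresh Kit+ cells. The Kit-J arrays thus read above every fresh Kit- array and overlapped the Kit+ fractions for this gene. Whether the titles or the conflicting description lines name the right Kit fraction was not tested, and this bears on every difference given here. Ptprc, which encodes the CD45 excluded by the gate, was 8.12 and 8.86 in Kit-J, 8.12 to 9.20 in fresh Kit- cells and 8.59, 4.46 and 4.16 in Kit-D. It read above 88.3% or more of genes on the fresh Kit- arrays, the Kit-J arrays and Kit-D replicate 1, all gated as CD45-, and above 22.4% on the lowest Kit-D array.

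Of the transcription factors of blood, 2 of 27 were called higher and 3 lower, against 3.3% and 6.07% of all genes. Runx3 was 8.63 and 8.58 in Kit-J and 7.29, 6.25 and 5.95 in Kit-D (4.32-fold higher, adjusted p = 0.017), and Myb, needed for definitive blood, was 7.23 and 8.86 against 6.26, 5.63 and 5.38 (4.89-fold higher, adjusted p = 0.015). Both missed the threshold with some array left out (highest adjusted p 0.132 and 0.104). The list counts were 1 higher and 1 lower without Kit-J replicate 1, and 0 higher and 1 lower without Kit-D replicate 3. Mecom, a regulator of stem cells that endothelium also expresses, was 5.59-fold lower (adjusted p = 0.00085), and Fli1 and Lmo2 were lower as well. Runx1, the factor required for the transition, was 7.82 and 8.78 in Kit-J and 7.80, 7.05 and 6.92 in Kit-D (1.04 ± 0.58, adjusted p = 0.25). Gata2 was 6.99 and 6.97 against 6.84, 6.79 and 7.49 (-0.06 ± 0.36, adjusted p = 0.93), and Itga2b, which encodes CD41, was 6.38 and 6.20 against 7.34, 6.16 and 5.87 (-0.17 ± 0.46, adjusted p = 0.83). Of 26 blood surface and cytokine receptor genes 3 were higher and 1 lower. The higher count was 0 when Kit-J replicate 1 or Kit-D replicate 2 was left out, 1 without Kit-J replicate 2 or Kit-D replicate 3, and 7 without Kit-D replicate 1. Csf2rb, the common beta chain of the IL3 and GM-CSF receptors, was 8.54 and 9.11 in Kit-J and 6.66, 4.08 and 4.36 in Kit-D (13.8-fold higher, adjusted p = 0.027, 0.14 with an array left out), and Csf2ra was 1.94-fold higher (adjusted p = 0.018). Il6st, the shared receptor chain for IL6, was 2.94-fold lower (adjusted p = 0.031).

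Several of the largest rises followed a split among the Kit-D arrays. Rgs1, a regulator of G protein signalling abundant in leukocytes, was 8.79 and 9.74 in Kit-J, 6.84, 4.30 and 3.93 in Kit-D and 8.30 ± 0.63 in fresh cells (19-fold higher, adjusted p = 0.018, 0.084 with an array left out). Gpr65 and Gpr171, receptors of lymphoid and myeloid cells, were also highest on replicate 1 among the Kit-D arrays, at 5.44, 2.19 and 2.40 and at 7.30, 4.91 and 4.33 on replicates 1 to 3. Cd53, a tetraspanin of leukocytes, was 9.50 and 10.33 in Kit-J and 9.38, 4.27 and 4.24 in Kit-D, and Tyrobp, an adaptor of myeloid receptors, was 9.89 and 10.35 against 10.46, 5.50 and 5.39. Neither passed the test. Of 25 leukocyte and myeloid markers 1 was called, Rgs1 (4.0% higher, near the 3.3% of all genes), or 6 without Kit-D replicate 1 and 0 without any other array. The list mean was -0.469 and -0.172 in Kit-J, 0.305 on Kit-D replicate 1, -1.99 and -2.16 on Kit-D replicates 2 and 3, and 1.4, -1.39 and -2.18 on Kit+D replicates 1 to 3. Kit-D replicate 1 and both Kit-J arrays thus held leukocyte transcripts near the fresh level and the other Kit-D arrays did not; in bulk samples fewer cells of a type and less RNA per cell cannot be told apart, and the part of this split in the calls was not tested. Without Kit-D replicates 2 and 3, 9 genes were called higher and 186 lower, of which 12 were endothelial identity genes.

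Embryonic globins were lower in Kit-J: Hba-x, Hbb-y and Hbb-bh1 were 9.14-, 8.88- and 12.1-fold lower (adjusted p = 0.0046, 0.0061 and 0.024), 3 of the 12 erythroid markers measured, while Gata1 and Klf1, factors of the red lineage, had differences of 0.13 and 0.86. All 3 missed the threshold with an array left out. The 3 globins also had lower means in Kit+J than in Kit+D. These were 5.41 and 9.96 for Hba-x, 5.11 and 11.03 for Hbb-y, and 5.13 and 8.25 for Hbb-bh1. The stroma difference was not shown to differ between Kit- and Kit+ cells in any of them (limma adjusted p = 0.427, 0.104 and 0.886). Of 9 megakaryocyte markers 2 were lower in Kit-J, the platelet chemokine Ppbp (7.96-fold, adjusted p = 0.027) and Clec1b (6.16-fold, adjusted p = 0.00081).

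Markers of stroma were also counted. Of 24 stromal and mural markers 4 were lower in Kit-J (median -0.58), the receptor Pdgfra (-1.60 ± 0.41), Prrx1 (-2.41 ± 0.72), Thy1 (-0.96 ± 0.21) and Fbln5 (-1.19 ± 0.32), and each missed the threshold with an array left out (0 called without Kit-J replicate 1). Relative to fresh cells the list was -0.609 and -0.517 in Kit-J and -0.174, 0.39 and 0.323 in Kit-D. The 16 OP9 and adipogenic stroma genes were -0.23 and -0.0423 in Kit-J and 0.451, 0.161 and 1.09 in Kit-D. Of these 16, 1 was called lower, Igfbp4 (6.25%, near the 6.07% of all genes). The part of stromal transcripts in the endothelial differences was not tested. A further fit left out both Kit-J replicate 1 and Kit-D replicate 3, so that 1 Kit-J array remained. The arrays left out had the lowest and the highest OP9 list mean of the 5 arrays and were chosen after the data were seen. In that fit the median difference of the 36 endothelial identity genes was -1.42 (-1.74 in the full fit), and that of all genes was 0.05. The Kit-J array that remained still read below the remaining Kit-D arrays in the OP9 list (-0.0423 against 0.451 and 0.161). The part of stroma was thus not tested by this fit either. Of 11 epithelial and mesonephric markers 1 was higher, Epcam, which germ cells also carry (4.21-fold, adjusted p = 0.031), and of 12 neural markers 2 were lower, Stmn2 and Tubb3.

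Germ cell genes made up many of the largest rises. Primordial germ cells pass through the AGM at this age, and they carry pluripotency factors and Kit. Of 20 germ cell pluripotency genes 9 were higher and 0 lower in Kit-J (median 2.22). Pou5f1, which encodes Oct4, was 9.44 and 9.12 in Kit-J, 4.21, 4.43 and 7.20 in Kit-D and 8.16 ± 0.51 in fresh Kit- cells (4.01 ± 1.17, 16.1-fold higher, adjusted p = 0.045). Dppa5a was 11.66 and 11.44 in Kit-J and 5.86, 7.37 and 8.91 in Kit-D (18-fold higher, adjusted p = 0.011), and Utf1 was 9.79 and 9.69 against 5.40, 5.45 and 6.44 (15.7-fold higher, adjusted p = 0.018). Kit-D replicate 3 lay nearest to Kit-J in each. Of 22 germline RNA and meiosis genes 2 were higher, Dazl (12-fold, adjusted p = 0.046) and Sycp3 (5.03-fold, adjusted p = 0.042), and both missed the threshold with any array of the Kit-J group or Kit-D replicate 1 or 2 left out (highest adjusted p 0.206 and 0.203). Relative to fresh Kit- cells the pluripotency list was 1.04 and 0.744 in Kit-J, -1.86, -1.52 and -0.795 in Kit-D, between 1.06 and 1.41 in Kit+J and -1.6, 0.971 and 1.59 in Kit+D. The count was 0 when Kit-J replicate 1 was left out, 3 without Kit-D replicate 2, 5 without Kit-D replicate 1 and 6 without Kit-D replicate 3 (limma), so 0 of the 9 held in every such fit. The part of germ cell number was not tested. Penk, Kcnma1, Klhl32 and Fbxo15 completed the largest rises at 11.3-, 13.2-, 13.1- and 13-fold. Each missed the threshold with an array left out (highest limma adjusted p 0.0784, 0.141, 0.113 and 0.156). Klhl32 read 8.1 on Kit-J replicate 1 and 6.1 on Kit-J replicate 2.

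The rises that held with each array left out included Ifitm1 and Ly6e, membrane proteins that interferon induces. Ifitm1 was 10.98 and 11.34 in Kit-J, 9.47, 8.09 and 8.44 in Kit-D and 10.05 ± 0.36 in fresh cells (2.50 ± 0.31, 5.65-fold higher, limma adjusted p = 0.00022). Ly6e was 9.76 and 10.21 in Kit-J, 8.73, 6.85 and 7.55 in Kit-D and 9.57 ± 0.17 in fresh cells (2.27 ± 0.44, 4.83-fold higher, limma adjusted p = 0.0054). The fresh mean of Ly6e was thus nearer to Kit-J, and both genes were highest on replicate 1 among the Kit-D arrays. Others of the 26, named after their values were seen, were Cd7 (2.17) and Xcl1 (1.88), genes of leukocytes, and Ticrr (1.58), a replication licensing factor, as log2 differences. Of 19 interferon genes 2 were higher and 0 lower (median 0.83): Usp18, the brake on interferon signalling (2.86-fold, adjusted p = 0.021), and Ddx58, the RNA sensor RIG-I (3.3-fold, adjusted p = 0.0088). Unlike Ifitm1 and Ly6e, both lost the call without Kit-J replicate 1 (adjusted p = 0.216 and 0.0542), and the list count ranged from 0 in that fit to 4 without Kit-J replicate 2. The list was 1.31 and 1.07 above fresh cells in Kit-J and 0.822, -0.184 and 0.0118 from them in Kit-D. Of 13 oxidative and metal stress genes 3 were higher, Mt2, a metallothionein (4.28-fold, adjusted p = 0.02), Gclc (2.22-fold, adjusted p = 0.048) and Gsr (1.83-fold, adjusted p = 0.043). That count was 0 without either Kit-J array and 1 without any Kit-D array.

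Proliferation and metabolism lists were counted beside the 3.3% of all genes called higher and the 6.07% called lower. Of 24 mitosis genes and 17 cholesterol genes 0 were called by limma, with medians of 0.22 and 0.19. Lists this small hold few calls at those shares, so a count of 0 does not set them apart. At an unadjusted p under 0.05 (limma), 7 mitosis genes were higher and 1 lower, and 1 cholesterol gene was higher. Of the 19937 genes tested, 2896 were higher and 2583 lower at that threshold. Of 27 DNA replication genes 2 were higher, Mcm10 (2.08-fold, adjusted p = 0.015) and Cdc45 (1.71-fold, adjusted p = 0.046), and Rfc3 was lower (-0.80 ± 0.22). Of 18 G1 cyclins and inhibitors 4 were lower, Ccnd1, Cdk4, Cdkn1b and Cdkn1c, which act in opposite directions on the cycle, with 2 called without Kit-J replicate 1 or any Kit-D array. With quantile normalization repeated, 5 mitosis, 6 DNA replication and 5 nucleolar genes were called higher and 2 G1 regulators lower. Calls were 1 higher of 28 nucleolar genes, 1 higher and 2 lower of 43 mitochondrial translation genes, 1 lower of 21 hypoxia and glycolysis genes and 0 of 8 housekeeping genes (1 higher and 1 lower at an unadjusted p under 0.05).

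MicroRNA precursors were among the genes on the arrays, and 14 of 300 were called higher and 0 lower (median 0.29; background 3.3% higher), or 5 when Kit-D replicate 3 was left out, 6 without Kit-J replicate 1 or Kit-D replicate 2 and 40 without Kit-J replicate 2. The share called higher was 4.67%, below the 8.37% of the olfactory receptor genes, whose median was 0.33. With housekeeping scaling 7 microRNA genes were called higher. A probe set for a precursor does not measure the mature form. Mir127 was 6.26 and 5.97 in Kit-J and 4.94, 5.39 and 4.78 in Kit-D (1.08 ± 0.31, adjusted p = 0.039), and Mir341 was 7.79 and 7.25 against 6.80, 6.56 and 6.73 (0.82 ± 0.19, adjusted p = 0.014). Both lie on chromosome 12 in an imprinted cluster. Of its long RNAs, Rian was lower (-2.04 ± 0.57, adjusted p = 0.0385, 0.295 without Kit-J replicate 1) and Meg3 was not called (-1.02 ± 0.33, adjusted p = 0.0676). Mir449a (0.90 ± 0.18), Mir129-2 (0.88 ± 0.19), Mir669b (0.86 ± 0.20) and Mir100 (0.84 ± 0.18) were also called, Mir129-2 and Mir100 from probe sets that read above 10.4% and 9.21% of genes on the lower Kit-J array. Each of the 6 missed the threshold with an array left out. Mature 5′ arms from RefSeq are shown to tell which families these are, with the seed (bases 2 to 8) in capitals.
mmu-miR-449a-5p: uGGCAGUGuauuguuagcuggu
mmu-miR-100-5p: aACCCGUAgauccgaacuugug
mmu-miR-127-5p: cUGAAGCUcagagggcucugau
mmu-miR-341-5p: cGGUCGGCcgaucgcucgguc
mmu-miR-129-5p: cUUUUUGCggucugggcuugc
The 5 seeds differ from each other. That of miR-449a-5p is shared by miR-34a-5p, miR-34b-5p and miR-449c-5p, a family linked to cell cycle exit, and that of miR-100-5p by miR-99a-5p and miR-99b-5p.

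The same stromas were compared in the Kit+ cells, and both differences were set against each other in 1 test. The difference between stromas differed between Kit- and Kit+ cells in 395 genes (1.98%), 271 more negative and 124 more positive in Kit- cells. Fzd4 had the smallest adjusted p among the genes named, with Kit+J and Kit+D means of 4.87 and 5.07 and a difference of differences of -2.94 (adjusted p = 0.00047). Kdr was 4.95 in Kit+J and 6.25 in Kit+D, a smaller difference than in Kit- cells (-2.97, adjusted p = 0.012), and Kitl was 3.64 and 4.70 (-2.99, adjusted p = 0.0095). For Emcn, at 4.63 and 7.32 in the Kit+ fractions, the stroma difference was not shown to differ (-1.76, adjusted p = 0.37), and nor was it for the germ cell gene Pou5f1 (2.52, adjusted p = 0.45). The count fell to 91 without Kit-J replicate 1.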

How the data were processed

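RNA of sorted AGM cells (5 ng) was amplified and hybridised to Affymetrix Mouse Gene 1.0 ST arrays by the authors. They deposited log2 values made with RMA (background correction, quantile normalization and probe set summary), whose version is not given in the sources used here; the values run from 1.24 to 13.58 and the array medians from 5.22 to 5.38. Raw intensities were not used here. Quantile normalization gives every array the same distribution of probe values, so a change in total RNA cannot be seen. The number of arrays limits the precision.

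Groups came from the sample titles. Gene symbols came from the platform table: of 34760 probe sets 21640 had 1 symbol, 1321 several and 11799 none, and 21553 were found in the mouse RefSeq table through their Entrez number, which changed 0 symbols. The probe set with the brightest mean stood for each of the 19937 genes (954 had more than 1). No 2 of the 5 arrays shared more than 0.803% of their values.

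One limma model (version 3.58.1; R 4.3.3 with its package for reading tables at 1.17.8) held the means of the 6 groups and took in all 17 arrays. Its variances were moderated by eBayes and its p-values adjusted after Benjamini and Hochberg. The spread is that between sorts, pooled over groups, so that Kit-J with 2 arrays borrows it from the rest. The script was tested on simulated data. Levels beside a test are means ± SD, and differences are ± SE. The 42 gene lists, microRNA genes included, were described by counts and medians without a test of the list. The members and lists were chosen with earlier results of these data known.

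Named genes were 12 rises and 12 falls, the largest with a call and no overlap between Kit-J and Kit-D, without provisional symbols and small RNAs; the 8 smallest adjusted p; up to 4 called members of each list; the sort genes, both ligands, Kitl, Flrt2 and Kdr; the genes the study discusses in Kit- cells; up to 6 called microRNAs; and 6 called genes each way in the test of the Kit- against the Kit+ difference. A few further genes were picked with their values in view. The comparison was repeated on the groups compared or the cultured arrays alone, without dim genes, on values shifted to the housekeeping mean or quantile normalized again, and with array weights. Further repeats used a robust prior with an intensity trend, every probe set or the mean per gene, a replicate block (fixed or random), a minimum log2 difference of 1, and each array left out. The fits without pairs of arrays were chosen later, with the data in view. Tables and figures used Python 3.11.15 with pandas 2.3.3, numpy 2.4.6 and matplotlib 3.10.9.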

Additional observations from a re-analysis of the deposited data

Results flagged for a closer look

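In 46 of the 130 genes named, the difference between the stromas in Kit- cells differed from that in Kit+ cells by the test of the difference itself (limma, adjusted p under 0.05; 1.98% of all genes passed). Of the 46, 12 were named because they passed this same test, and most of the others for their difference in Kit- cells, which enters it, so the count is a description that cannot be read against the share of all genes. Values below are the Kit-J minus Kit-D difference less the Kit+J minus Kit+D difference, on the log2 scale.

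The difference was more negative in Kit- cells for genes of vascular signalling, Kdr (-2.97), Tek (-1.95), Ptprb (-2.05), Fzd4 (-2.94), Bmpr2 (-1.59), Bmp2 (-1.51), Smad5 (-1.34), Dusp6 (-1.19), Kitl (-2.99), Edn1 (-2.25) and Sgk1 (-1.89). The same held for guidance, surface and junction genes, Flrt2 (-3.00), Sema6a (-3.26), Sema6d (-2.88), Itga2 (-3.24), Clec14a (-2.39), Pecam1 (-2.04), Esam (-2.03), Cgnl1 (-2.10), Cdh2 (-1.73), Pcdh17 (-1.56), Stab2 (-1.25) and Ptprd (-2.29). It also held for genes of caveolae and the cytoskeleton, Cav2 (-2.17), Cavin2 (-1.95), Limch1 (-2.68) and Arhgap31 (-1.45), for transcription and chromatin factors, Mecom (-2.36), Nr2f2 (-1.84), Prox1 (-2.18), Zeb1 (-2.21), Snai2 (-1.64) and Macroh2a2 (-3.02), and for Gpx8 (-3.64), Klhl4 (-2.17), Nrep (-1.94), Sgce (-2.36), Cdkn1c (-1.56) and Yars2 (-1.77). Pecam1 had opposite signs in the 2 fractions: its Kit+J mean was 9.61 and its Kit+D mean 8.57, while its Kit-J mean was 9.03 and its Kit-D mean 10.04 (adjusted p of the Kit- difference 0.0859, limma).

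The difference was more positive in Kit- cells for Ifitm1 (2.55), Ly6e (2.45), Slc9a3r1 (2.16), Ebi3 (2.21), Commd5 (2.15), Rpp25l (3.01) and Mir669b (1.31). For Ifitm1 and Ly6e the Kit+ means were alike between the stromas, 11.33 and 11.38 for Ifitm1 and 9.48 and 9.66 for Ly6e in Kit+J and Kit+D. Rpp25l read 8.36 on Kit-J replicate 1 and 6.76 on Kit-J replicate 2, and without replicate 1 the adjusted p of its Kit- difference was 0.519 (limma). Which part of these differences belongs to the arrays that stand apart was not tested.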

How the results depend on the processing

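None of the called named genes changed direction between Kit-J and Kit-D under the alternatives run, but the counts depended on the arrays used. Each fit below is given by its own number of calls; how many genes it shares with the 1869 was not counted. There were 1151 calls in a fit of the 5 arrays alone, 748 in the 11 cultured arrays, 1164 with housekeeping scaling, 1180 with array weights, 1056 at a log2 difference of at least 1, 246 without both Kit-J replicate 1 and Kit-D replicate 3, and 195 without Kit-D replicates 2 and 3. The calls higher in Kit-J, 658 in the full fit, were in the same order 293, 117, 256, 331, 180, 36 and 9, with 311 once dim genes were left out before the fit. For the lower calls, 1211 in the full fit, the counts more than 1.5 times smaller were, before single arrays were left out, 631 in the cultured arrays and 210 and 186 without those pairs of arrays. With each array left out the calls ran from 504 (without Kit-J replicate 1) to 2728 (without Kit-J replicate 2), the higher from 96 to 1265 and the lower from 408 to 1463. Without Kit-D replicate 2 they were 1005, 219 and 786, and without Kit-D replicate 3 they were 836, 195 and 641. The higher count was 381 without Kit-D replicate 1.

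For the difference between Kit- and Kit+ cells, 395 genes became 44 in the cultured arrays alone, 168 with housekeeping scaling and 161 with array weights, and 14 and 8 without the pairs of arrays. With each array left out it ranged from 91 to 811, both set by Kit-J arrays. It was 763 without Kit+D replicate 3, 144 and 116 without Kit-D replicates 2 and 3, 209 without Kit+J replicate 3 and 218 without Kit+D replicate 2.

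With a fixed replicate block 428 genes were higher and 260 differed between Kit- and Kit+ cells. The deviations of same-numbered Kit-J and Kit-D arrays from their group means had r = -0.0138 and -0.0503. With 2 Kit-J arrays, their deviations are mirror images, so this check cannot tell whether same-numbered arrays share a sort. Of the 123 called named genes, 60 missed the threshold without Kit-J replicate 1, 25 when Kit-J replicate 2 was left out, 19 to 32 without a Kit-D array, and 80 and 76 without the pairs of arrays, which were chosen after seeing the data. The cause of these changes was not tested beyond the smaller number of arrays. Dim genes and the compressed scale of Kit-J replicate 1 limit what the small rises show.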
